A study of Homo sapiens with 15 samples.

Results

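The genes described here are 40 human genes of the G1/S transition and of DNA replication, chosen by symbol to cover replication licensing, the replicative polymerases, nucleotide supply and the E2F factors. By Ensembl identifier, 40 of 40 were found among the 62700 genes of each of the count tables, and 40 passed the filter on low counts in both. Their RNA was measured by RNA-seq in 15 libraries of 143B, an established human osteosarcoma cell line known for its lack of thymidine kinase activity. There were 3 libraries in each of 5 conditions. Non-OSCs were 143B cells of wild-type genotype kept adherent in medium with serum. OSCs (osteosarcoma stem cells) were wild-type 143B cells grown as spheres without serum, in DMEM/F12 with B27 supplement, EGF and basic FGF. The other 3 conditions were 143B OSCs infected with lentivirus for a control (shCtrl, labelled wild type) or for 1 of 2 short hairpins against PDK1 (shPDK1#1 and shPDK1#2). PDK1, pyruvate dehydrogenase kinase 1, restrains the entry of pyruvate into the TCA cycle. The study asked what sphere culture and PDK1 knockdown change in OSCs.

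Before S phase, the origin recognition complex, CDC6 and CDT1 load the MCM2-7 helicase onto DNA (licensing). At the G1/S transition, cyclin E with CDK2 releases E2F factors from RB proteins, and E2F drives the transcription of many genes described here. MCM10, CDC45 and the GINS complex then turn the loaded helicase on, primase and the polymerases copy the strands, and PCNA, loaded by the RFC complex, holds the polymerases on DNA. In bulk RNA, fewer cells in S phase and less RNA of these genes per cell cannot be told apart, and this holds for every difference given here.

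The rounded expected counts, which estimate the sequenced fragments of each gene, summed to between 7992499 and 11256536 per library. Expression levels are given as CPM, counts of a gene scaled to a common library size after TMM normalization (which also corrects for composition). The OSC and hairpin tables were normalized separately, so levels are not compared across them. A gene is said to rise or fall where the adjusted p of edgeR's quasi-likelihood test, corrected over all genes tested, was under 0.05. The targeted gene followed the labels: PDK1 was 46.7, 44.7 and 44.4 CPM in shCtrl, 29.0, 27.8 and 27.3 CPM with shPDK1#1, and 18.3, 21.5 and 19.6 CPM in the shPDK1#2 libraries. Of 8 mesenchymal and osteosarcoma markers, VIM, SPARC, CD44 and COL1A1 were expressed, whereas IBSP was at 0 in every library. COL1A2 was low, but it passed the filter on low counts in the hairpin table. RUNX2 and ALPL were also on this list, and their levels are not given here. Of 6 markers tested in the OSC table, 4 rose and 1 fell in OSCs (66.7% and 16.7%, where 32.4% and 31.5% of all genes did). Of 7 tested in the hairpin table, 1 rose with shPDK1#1 (14.3%, against 1.62% of all genes) and 3 with shPDK1#2 (42.9%, against 12.0%). With either hairpin 0 fell. The log2 fold changes of the markers tested lay between -1.11 and 1.34 in OSCs. They lay between -0.27 and 0.32 with shPDK1#1 and between -0.22 and 2.29 with shPDK1#2. The summed CPM of 3 lymphocyte markers lay between 0 and 0.1047 and that of 3 endothelial markers was at most 1.848. Whether the 3 libraries of a condition came from separate cultures is not given in the sources used here, so the p-values measure the spread between these libraries only.

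The replication genes were lower in OSCs than in non-OSCs as a whole set. Of the 40 genes, 40 fell and 0 rose in OSCs, where 31.5% of the 14287 genes tested fell and 32.4% rose. The median log2 fold change was -0.87 over the replication genes and -0.01 over all genes tested. In every one of the 40 genes, the highest OSC library lay below the lowest non-OSC library. The share of all genes tested with such a separation was not computed. Summed over the 40 genes, the level was between 4362 and 4447 CPM in the non-OSC libraries and between 2336 and 2393 CPM in the OSC libraries. Every OSC library came from spheres without serum and every non-OSC library from adherent cells with serum, so culture format, medium and cell state cannot be told apart here.

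**Figure D1:**
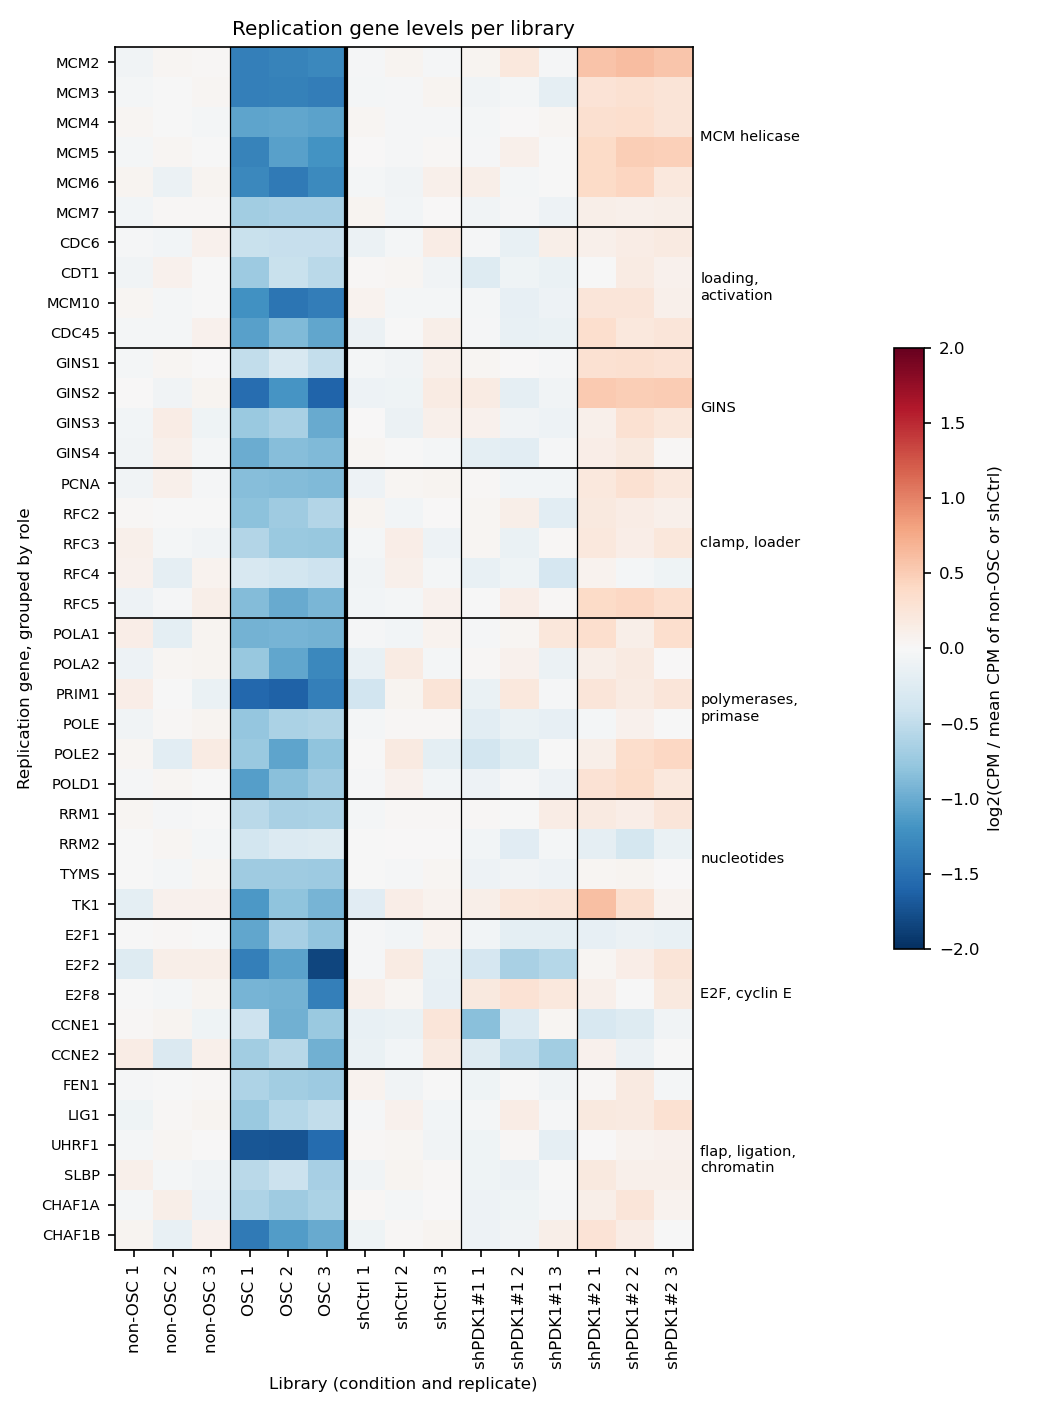
Level of each of the 40 replication genes (rows, grouped by role) in each of the 15 libraries (columns), as log2 of its CPM over the mean CPM of the non-OSC libraries (left of the thick line) or of the shCtrl libraries (right of it). The 3 OSC columns are blue in every row. The shPDK1#2 columns are mostly pale red, with RRM2 the one row that passed the test in the other direction, and the shPDK1#1 columns are mostly paler.

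The MCM2-7 helicase, the ring that unwinds DNA, showed the lowest median of the role groups in OSCs, at -1.26, and 6 of its 6 subunits fell. MCM3 was 302, 309 and 320 CPM in the non-OSC libraries and 120, 122 and 119 CPM in the OSC libraries. Its level in OSCs was 38.9% of that in non-OSCs (log2 fold change -1.36, SE 0.049, adjusted p = 6.51e-16). MCM2 (-1.33), MCM6 (-1.33) and MCM5 (-1.20) fell by similar amounts, MCM4 by slightly less (-1.05), and MCM7 fell least (-0.68). MCM7 was 375, 398 and 398 CPM in non-OSCs and 240, 246 and 246 CPM in OSCs. The 6 summed subunits were 1561 to 1595 CPM in non-OSCs and between 739 and 758.4 CPM in OSCs.

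Per kilobase of transcript, MCM7 was the highest and MCM6 the lowest subunit in all 5 conditions, although the assembled ring holds the subunits in equal number. The ratio of MCM7 to MCM6 was 4.47 in non-OSCs (158 against 35.4 CPM per kb) and 7.01 in OSCs (99.0 against 14.1 CPM per kb). In the hairpin table it was 5.89 in shCtrl, 5.53 with shPDK1#1 and 5.01 with shPDK1#2. The order of MCM3 and MCM4 alone differed between non-OSCs, where MCM3 was above MCM4 (101 and 90.5 CPM per kb), and the other conditions, where MCM4 was above MCM3. These ratios rest on 1 annotated transcript length per gene and were not tested. Of the exon bases of MCM7, 7.903% lie opposite AP4M1, and 23.606% of those of MCM2 lie opposite an unnamed gene. The strandedness of the libraries is not given in the sources used here, so reads of such overlapping genes may be shared.

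**Figure D2:**
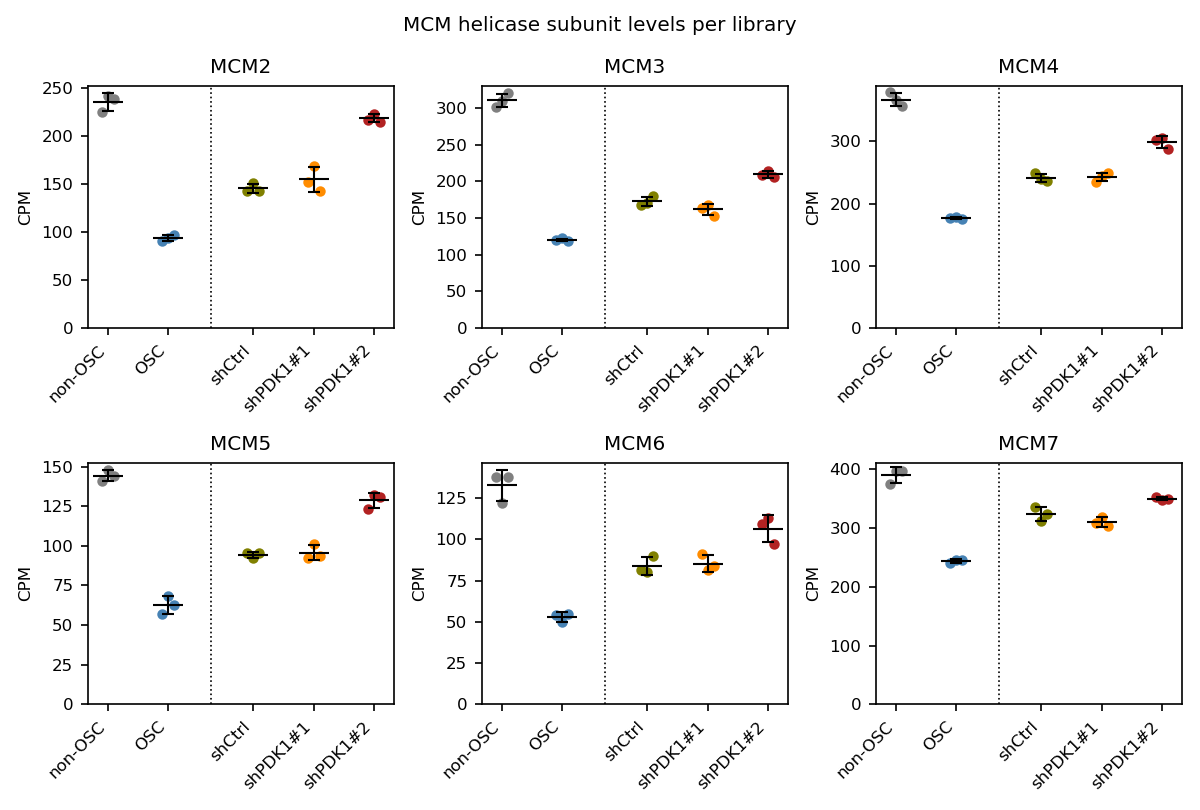
CPM of the 6 MCM2-7 subunits in each library (points) with the mean and SD of 3 libraries (black) for the 5 conditions, and a dotted line between the tables that were normalized separately. For each subunit the OSC points lie below the non-OSC points, and the shPDK1#2 points lie above the shCtrl and shPDK1#1 points.

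Among the genes that load and activate the helicase, 4 of 4 fell in OSCs, with a median of -0.78. MCM10, which helps to switch on the loaded helicase, was 72.5, 69.2 and 70.5 CPM in non-OSCs and 30.4, 25.6 and 27.2 CPM in OSCs (log2 fold change -1.36, SE 0.083, adjusted p = 4.25e-12). CDC45, a partner of the active helicase, fell by 1.0 on the log2 scale. The loading factors CDC6 (-0.45) and CDT1 (-0.56) fell less. In the GINS complex, which joins CDC45 and MCM2-7 in the active helicase, 4 of 4 genes fell, with a median of -0.85. GINS2 was 50.8, 48.1 and 52.1 CPM in non-OSCs and 17.5, 22.1 and 16.5 CPM in OSCs (log2 fold change -1.42, SE 0.10, adjusted p = 7.78e-11). GINS1 fell least (-0.43), with GINS3 at -0.78 and GINS4 at -0.91.

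The clamp PCNA and the clamp loader subunits RFC2 to RFC5 fell in 5 of 5 cases, with a median of -0.70. RFC5 was 45.6, 48.5 and 53.4 CPM in non-OSCs and 26.9, 24.5 and 26.1 CPM in OSCs (log2 fold change -0.93, SE 0.091, adjusted p = 1.01e-08). PCNA fell by 0.87, RFC2 by 0.70, RFC3 by 0.70 and RFC4 by 0.37 on the log2 scale. Polymerase and primase genes fell in 6 of 6 cases, with a median of -0.91. PRIM1, the catalytic subunit of the primase that makes the RNA primers, was 36.5, 33.3 and 30.4 CPM in non-OSCs and 11.3, 10.9 and 12.9 CPM in OSCs (log2 fold change -1.51, SE 0.11, adjusted p = 1.68e-10). It shared 9.688% of its transcript sequence, as stretches of 75 bases, with other genes including NACA. The DNA polymerase alpha genes POLA1 and POLA2, which extend the primers, changed by -0.94 and -1.01. The leading strand polymerase genes POLE (-0.66) and POLE2 (-0.87) and POLD1, the catalytic subunit of polymerase delta (-0.88), also fell.

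Nucleotide supply fell in 4 of 4 genes, with the smallest median of the role groups, -0.66. TK1, thymidine kinase of the salvage pathway, was 24.2, 29.2 and 29.4 CPM in non-OSCs and 12.4, 15.8 and 14.5 CPM in OSCs (log2 fold change -0.95, SE 0.12, adjusted p = 5.61e-07). Its RNA was therefore measurable in a line known to lack the enzyme's activity. TYMS, thymidylate synthase, was the most expressed of the 40 genes per kilobase in each condition, at 209 CPM per kb in non-OSCs and 127 in OSCs, and fell by 0.72. Of its exon bases, 47.914% lie opposite ENOSF1 and TYMSOS. Ribonucleotide reductase makes deoxynucleotides from ribonucleotides with a large subunit, RRM1, and a small subunit, RRM2. RRM1 fell by 0.60, and RRM2 showed the smallest fall of the 40 genes. RRM2 was 110, 114 and 108 CPM in non-OSCs and 85.9, 91.8 and 93.0 CPM in OSCs, a log2 fold change of -0.29 (SE 0.060, adjusted p = 0.0002).

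E2F factors and cyclin E fell in 5 of 5 cases, with a median of -0.81. E2F2, a transcriptional activator, was 17.7, 23.0 and 23.0 CPM in non-OSCs and 8.25, 10.1 and 5.92 CPM in OSCs (log2 fold change -1.37, SE 0.16, adjusted p = 2.29e-07). The activator E2F1 fell by 0.81 and the repressor E2F8 by 1.06. The cyclin E genes CCNE1 and CCNE2 changed by -0.70 and -0.72 from low levels, with between 59 and 181 counts per library. In the last group, 6 of 6 genes fell, with a median of -0.67. UHRF1, which guides DNA methylation to newly copied DNA, showed the largest fall of the 40 genes. It was 313, 331 and 325 CPM in non-OSCs and 98.2, 98.1 and 111 CPM in OSCs, 31.7% of the non-OSC level (log2 fold change -1.66, SE 0.056, adjusted p = 1.98e-16). UHRF1 shared 18.664% of its sequence with an unnamed gene. The histone chaperone genes CHAF1B and CHAF1A changed by -1.17 and -0.66, the flap nuclease gene FEN1 by -0.68, the ligase gene LIG1 by -0.60, and SLBP, which binds histone mRNA, by -0.54.

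With shPDK1#1, 1 of the 40 genes passed the test, E2F2, and it was lower than in shCtrl. This is 2.5% of the 40, close to the share of all genes. Of the 14574 genes tested, 1.44% were lower and 1.62% higher. The median log2 fold change over the 40 genes was -0.04 (0.00 over all genes). E2F2 was 13.8, 15.7 and 12.7 CPM in shCtrl and 11.1, 9.0 and 9.47 CPM with shPDK1#1, with no overlap between the libraries. Its level was 70.1% of that in shCtrl (log2 fold change -0.53, SE 0.14, adjusted p = 0.0276). This call was lost without shCtrl replicate 1 or 2 or shPDK1#1 replicate 2 or 3, with an adjusted p of up to 0.175. CCNE2 was just outside the threshold (log2 fold change -0.48, adjusted p = 0.0505). It passed without shPDK1#1 replicate 1 or shPDK1#2 replicate 2, which gave 2 genes called, and also with DESeq2, library size alone, no filter or at least 10 counts in every library. POLE passed as well with DESeq2, library size alone or the replicate block. The 6 MCM subunits lay between -0.10 and 0.08, and the 40 genes between -0.53 and 0.23.

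With shPDK1#2, the hairpin with the lower PDK1 level, 17 of the 40 genes rose and 1 fell, where 12.0% of all genes rose and 14.2% fell. The other 22 did not pass the test. The median log2 fold change of the 40 genes was 0.17 (0.01 over all genes), and 35 of the 40 values were positive. The largest rise was 0.58, in MCM2. Summed over the 40 genes, the libraries lay between 3083 and 3138 CPM in shCtrl, between 3001 and 3053 CPM with shPDK1#1 and between 3509 and 3581 CPM with shPDK1#2. Leaving out 1 library at a time gave between 13 and 19 genes called.

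**Figure D3:**
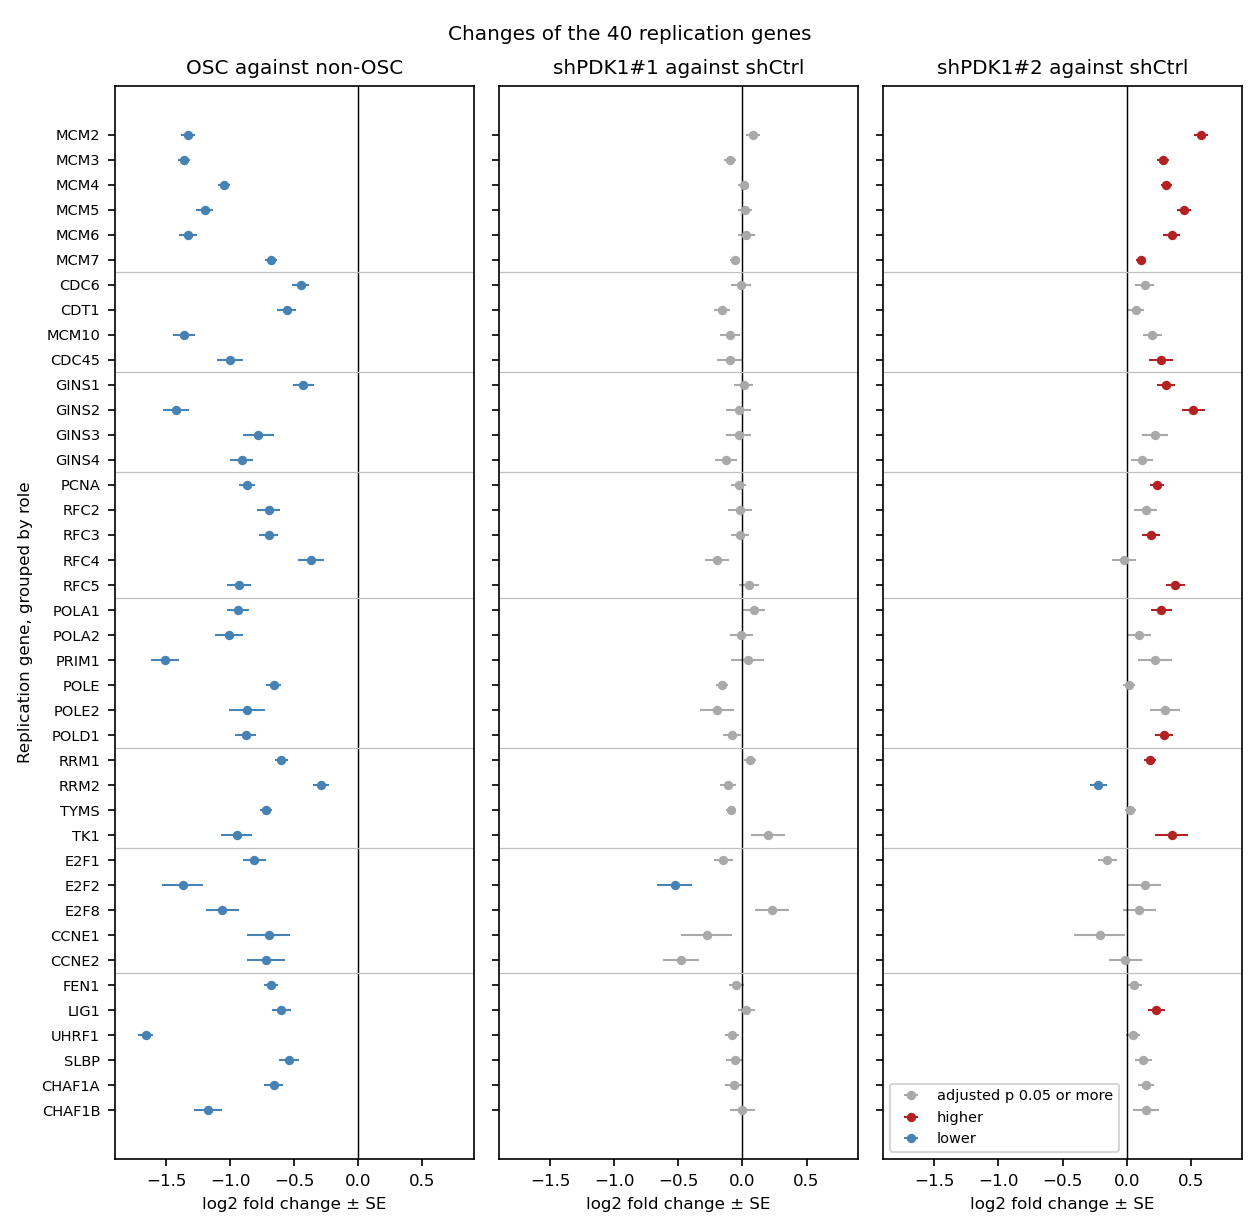
Log2 fold change with its SE for the 40 replication genes (rows, grouped by role) in 3 comparisons, from the edgeR fits of 6 and 9 libraries. Blue points fell and red points rose at an adjusted p under 0.05, and grey points did not pass. The 40 points of OSCs against non-OSCs are blue, 1 point is blue with shPDK1#1, and 17 are red and 1 is blue with shPDK1#2.

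The MCM2-7 helicase was the one role group in which each gene rose with shPDK1#2 (6 of 6, median 0.33). MCM2 was 143, 151 and 143 CPM in shCtrl, 152, 169 and 143 CPM with shPDK1#1 and 217, 223 and 215 CPM in the shPDK1#2 libraries. The shPDK1#2 libraries lay above all others, at 150% of shCtrl (log2 fold change 0.58, SE 0.052, adjusted p = 2.98e-09). MCM5 rose by 0.45, MCM6 by 0.35, MCM4 by 0.31 and MCM3 by 0.28 on the log2 scale. MCM7, which fell least in OSCs, also rose least (0.11, SE 0.040, adjusted p = 0.0366), and this call was lost without shCtrl replicate 2 or 3 or any one shPDK1#2 library, with library size alone and with no filter (adjusted p up to 0.199). The helicase partner CDC45 was 21.5, 23.2 and 25.2 CPM in shCtrl and 29.5, 27.0 and 27.6 CPM with shPDK1#2 (log2 fold change 0.27, SE 0.093, adjusted p = 0.0326). This call was lost without shCtrl replicate 1 or 2 or shPDK1#2 replicate 1 or 3, with DESeq2 and with no filter (adjusted p up to 0.152). MCM10 was at 0.20 with an adjusted p of 0.0503 and passed in some of the other fits, and CDC6 (0.14) and CDT1 (0.07) did not pass.

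In the GINS complex, 2 of 4 genes rose with shPDK1#2. GINS2 was 28.0, 28.4 and 33.7 CPM in shCtrl and 43.4, 42.3 and 42.6 CPM with shPDK1#2, 142% of shCtrl (log2 fold change 0.52, SE 0.091, adjusted p = 9.74e-05). GINS1 rose by 0.31, and GINS3 (0.22) and GINS4 (0.12) did not pass. Of the clamp and its loader, 3 of 5 rose. RFC5 was 35.5, 35.9 and 38.8 CPM in shCtrl and 48.1, 48.8 and 46.5 CPM with shPDK1#2 (log2 fold change 0.38, SE 0.075, adjusted p = 0.000353). PCNA rose by 0.24 and RFC3 by 0.19, RFC3 at an adjusted p of 0.049 that reached 0.22 under the alternatives. The RFC3 call was lost with DESeq2, library size alone, no filter or the replicate block, and it passed only without shCtrl replicate 2, shPDK1#1 replicate 2 or shPDK1#2 replicate 2 when a library was left out. RFC2 (0.15) and RFC4 (-0.02) did not pass.

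Of the polymerase and primase genes, 2 of 6 rose with shPDK1#2. POLD1 was 53.1, 57.2 and 52.2 CPM in shCtrl and 66.3, 70.1 and 62.6 CPM with shPDK1#2 (log2 fold change 0.29, SE 0.068, adjusted p = 0.00193). POLA1 rose by 0.27, a call lost without shCtrl replicate 1 or 2 or shPDK1#2 replicate 1 or 3 (adjusted p up to 0.0864), and POLE (0.02) was close to 0. Nucleotide supply was the one group with calls in both directions. TK1 was 12.4, 15.9 and 15.2 CPM in shCtrl and 22, 18.1 and 15.2 CPM with shPDK1#2, and the libraries overlapped (log2 fold change 0.35, SE 0.13, adjusted p = 0.0479). That call was lost without replicate 1 or 3 of shCtrl or shPDK1#1, without replicate 1 or 2 of shPDK1#2, with DESeq2, with library size alone, with the replicate block and with the compared groups fitted alone (adjusted p up to 0.329). RRM1 rose by 0.18 and TYMS did not pass (0.03).

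The small ribonucleotide reductase subunit RRM2 moved the other way. It was 102, 103 and 103 CPM in shCtrl, 98.9, 87.6 and 99.8 CPM with shPDK1#1 and 90.5, 80.3 and 93.8 CPM in the shPDK1#2 libraries. Every shPDK1#2 library lay below every shCtrl library (log2 fold change -0.22, SE 0.063, adjusted p = 0.010), and without shPDK1#2 replicate 2 the adjusted p was 0.0805. RRM2 was thus the one gene of the 40 called lower both in OSCs and with shPDK1#2. None of the 5 E2F factor and cyclin E genes passed with shPDK1#2 (range -0.21 to 0.14). E2F1 was 45.8, 44.7 and 48.8 CPM in shCtrl and 41.3, 42.6 and 41.8 CPM with shPDK1#2, without overlap (log2 fold change -0.15, SE 0.074, adjusted p = 0.158). In the last group LIG1 alone rose. It was 67.1, 72.3 and 65.5 CPM in shCtrl and 78.3, 77 and 84.8 CPM with shPDK1#2 (log2 fold change 0.23, SE 0.066, adjusted p = 0.012), and the call was lost without shCtrl replicate 1 or 3 or shPDK1#2 replicate 3 (adjusted p up to 0.0815). UHRF1, which fell most in OSCs, was at 0.05 with shPDK1#2 (adjusted p = 0.533).

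The hairpins were also compared directly, in the same fit. With shPDK1#2, 24 of the 40 genes were higher than with shPDK1#1 and 0 were lower, where 6.50% of all genes were higher and 9.78% lower. The median log2 difference was 0.20, and leaving out 1 library at a time gave between 17 and 22 genes. All 6 MCM subunits were among them: MCM2 (0.50, SE 0.052, adjusted p = 7.83e-08), MCM5 (0.43, SE 0.054, 1.84e-06), MCM3 (0.37, SE 0.047, 1.98e-06), MCM6 (0.32, SE 0.064, 0.000631), MCM4 (0.30, SE 0.042, 8.11e-06) and MCM7 (0.18, SE 0.040, 0.00246). CDC45 (0.37, SE 0.093, adjusted p = 0.00649), MCM10 (0.30, SE 0.074, 0.00538), CDT1 (0.23, SE 0.065, 0.0146), GINS2 (0.54, SE 0.090, 9.04e-05), GINS1 (0.30, SE 0.070, 0.0034) and GINS4 (0.25, SE 0.086, 0.044) were higher as well. E2F2 showed the largest difference, being 11.1, 9.0 and 9.47 CPM with shPDK1#1 and 14.5, 15.5 and 16.8 CPM in the shPDK1#2 libraries (0.67, SE 0.13, adjusted p = 0.000637).

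Further genes higher with shPDK1#2 than with shPDK1#1 were the clamp and loader genes PCNA (0.27, SE 0.055, adjusted p = 0.000828), RFC5 (0.33, SE 0.074, 0.00233) and RFC3 (0.21, SE 0.070, 0.0418). Of the polymerases these were POLE2 (0.49, SE 0.13, adjusted p = 0.00699), POLD1 (0.37, SE 0.068, 0.000305) and POLE (0.18, SE 0.049, 0.0122). TYMS (0.12, SE 0.040, adjusted p = 0.0431), CCNE2 (0.48, SE 0.13, 0.0146), CHAF1A (0.21, SE 0.062, 0.0173), SLBP (0.20, SE 0.064, 0.038) and LIG1 (0.19, SE 0.066, 0.0419) completed the list. CCNE2 was 12.9, 10.8 and 9.56 CPM with shPDK1#1 and 16.3, 14.2 and 15.3 CPM in the shPDK1#2 libraries, and 37.139% of its exon bases lie opposite INTS8 and an unnamed gene. The libraries of the hairpins did not overlap for any of the genes called, and the share of all genes without overlap was not computed. Several of these calls were lost in fits with 1 library left out, although the fitted difference of TYMS, for example, stayed between 0.11 and 0.13. TYMS was lost without any library other than shPDK1#1 replicate 2 (adjusted p up to 0.117), GINS4 without any other than shPDK1#1 replicate 3 or shPDK1#2 replicate 3 (up to 0.142), and LIG1 without replicate 1 or 3 of any group (up to 0.199). RFC3 was lost without shCtrl replicate 1, shPDK1#1 replicate 2 or 3, or shPDK1#2 replicate 1 or 3 (up to 0.156), and SLBP without shCtrl replicate 3, shPDK1#1 replicate 1 or 2, or shPDK1#2 replicate 1 or 3 (up to 0.162). CDT1, POLE and CHAF1A were lost without shPDK1#1 replicate 1 or shPDK1#2 replicate 2 (up to 0.0832, 0.0688 and 0.0967), and CCNE2 without shPDK1#1 replicate 3 or shPDK1#2 replicate 1 (up to 0.103). With the 2 hairpin groups fitted alone, GINS4, TYMS, SLBP and LIG1 were lost, with no filter GINS4, TYMS and SLBP, and with DESeq2 GINS4.

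The OSC and hairpin tables share no library. Of the 40 genes lower in OSCs, 17 were higher with shPDK1#2 (42.5%), while among all genes lower in OSCs the share was 23.7%. The 17 were all lower in OSCs because each of the 40 genes was, and they made up 17 of the 1047 genes lower in OSCs and higher with shPDK1#2. Across the 40 genes, the log2 fold changes of the 2 comparisons had a Pearson r of -0.473 and a Spearman rho of -0.438, and over all genes these were -0.310 and -0.367. Genes are not independent replicates, and these values describe the tables without a test. GINS2, MCM2 and MCM5 fell by over 1 in OSCs and were the 3 largest rises with shPDK1#2, whereas PRIM1 and UHRF1 fell more and were not called with the hairpin.

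Levels of G2/M genes were summed as a comparison for cells in division. The sum of the 14 G2/M genes was 3377 to 3508 CPM in non-OSCs and 2482 to 2567 CPM in OSCs, and 11 of the 14 fell in OSCs (median -0.39). That is 78.6% of the 14, where 31.5% of all genes fell in OSCs. With shPDK1#2 none of the 14 rose and 3 fell, MKI67 (-0.14), PLK1 (-0.18) and KIF11 (-0.13), with a median of -0.03. These 3 are 21.4% of the 14, where 14.2% of all genes fell. KIF11 was close to the threshold (adjusted p = 0.0492), and its call was lost with no filter and in 7 of the 9 fits with 1 library left out, so that 2 of the 14 fell (adjusted p up to 0.259). The G2/M sum was 3380 to 3415 CPM in shCtrl and 3257 to 3288 CPM with shPDK1#2, so it did not follow the higher sum of the replication genes. The replication-dependent histone genes, whose mRNAs accumulate in S phase, differed in direction from the 40 genes. Of 19 tested in the OSC table, 15 rose and 1 fell in OSCs (median 1.17). These are 78.9% and 5.26%, where 32.4% of all genes rose and 31.5% fell. Of 20 tested in the hairpin table, 0 rose and 6 fell with shPDK1#2 (median -0.44). The 6 falls are 30.0%, where 14.2% of all genes fell and 12.0% rose. These counts depended on the filter and on single libraries. In OSCs, DESeq2 called 11 of 36 higher (median 0.75), a fit with no filter 17 of 54 (median 0.61), and fits with 1 library left out 10 to 14 of 20 to 22. With shPDK1#2, the fit with no filter had a median of -0.13 over 62 genes with 8 lower, and the median was -0.24 without shCtrl replicate 3 and -0.28 without shPDK1#2 replicate 1, each with 4 lower. Without shCtrl replicate 2, 1 of 22 tested was higher with shPDK1#2 and 4 were lower. H2BC21 was 4.34, 4.60 and 4.63 CPM in non-OSCs and 24.5, 22.4 and 23.9 CPM in OSCs. It was chosen after its values were seen. These mRNAs normally end without a poly(A) tail, and near-identical copies share reads.

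Markers of other cell types moved between the conditions too. The 4 epithelial markers (EPCAM, CDH1, KRT8 and KRT18) summed to 1097 to 1227 CPM in non-OSCs and 292.1 to 301.6 CPM in OSCs, and to 329.8 to 354.3 CPM in shCtrl, 379.4 to 397.4 CPM with shPDK1#1 and 436.3 to 475.3 CPM with shPDK1#2. Of these, CDH1 was at or near 0 in every library, KRT8 and KRT18 fell in OSCs (-2.43 and -1.95) and rose with shPDK1#2 (0.38 and 0.43). Of 3 epithelial markers tested, the remaining 1 did not pass in OSCs (-0.29) or with shPDK1#2 (0.77). With shPDK1#1, 1 of the 3 rose (33.3%, where 1.62% of all genes rose). The 3 osteoclast markers (CTSK, MMP9 and ACP5) summed to 27.48 to 30.74 CPM in non-OSCs and 77.37 to 80.83 CPM in OSCs, and to 51.31 to 56.22 CPM in shCtrl, 34.48 to 42.82 CPM with shPDK1#1 and 22.35 to 26.46 CPM with shPDK1#2. MMP9 and CTSK rose in OSCs (1.40 and 2.14), MMP9 fell with both hairpins (-0.60 and -1.18), CTSK did not pass with either, and ACP5 was at or near 0. The pericyte markers RGS5 and ACTA2 summed to 4.243 to 5.254 CPM in non-OSCs and 20.54 to 23.68 CPM in OSCs, and to 17.77 to 22.11 CPM in shCtrl, 15.67 to 16.75 CPM with shPDK1#1 and 15.21 to 18.1 CPM with shPDK1#2. RGS5 was near 0, and ACTA2 rose in OSCs (2.31) and did not pass with either hairpin. The 3 myeloid markers (PTPRC, CD74 and CD14) summed to 1.736 to 2.517 CPM in non-OSCs and 0.7082 to 1.232 CPM in OSCs. In the hairpin libraries their sum was at most 2.769 CPM. The 1 tested in the OSC table fell in OSCs (-2.48), and the 1 tested in the hairpin table passed with neither hairpin. The share of counts from the mitochondrial genome was between 2.69% and 3.89% over the 15 libraries. The part of these markers in the replication results was not tested.

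**Figure D4:**
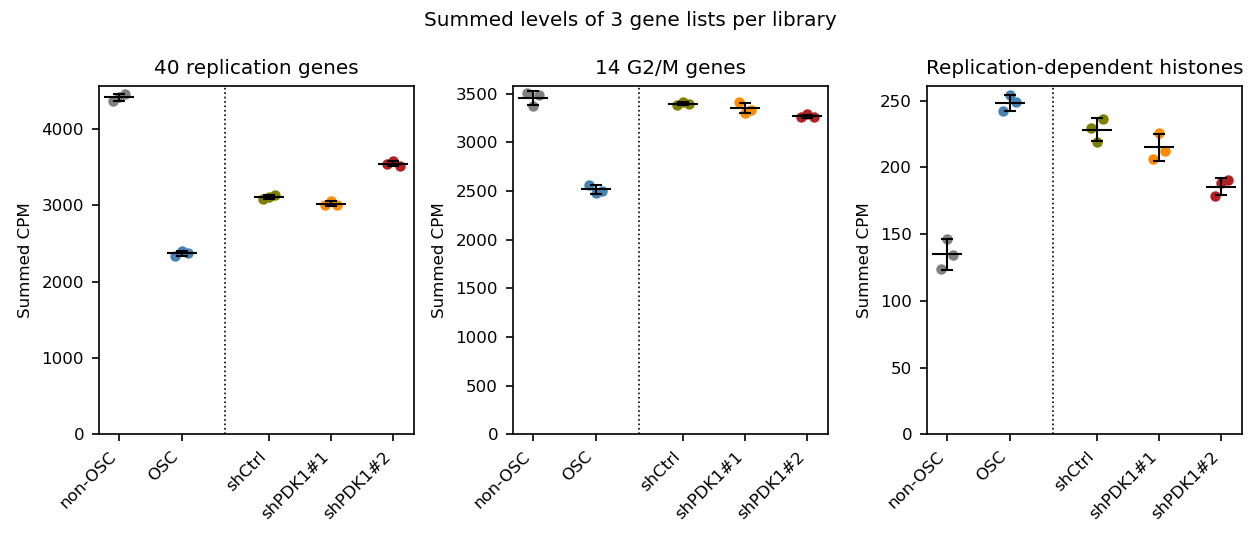
Summed CPM of the 40 replication genes, of 14 G2/M genes and of the replication-dependent histone genes in each library (points), with the mean and SD of 3 libraries (black) and a dotted line between the separately normalized tables. The replication genes and G2/M genes are lower in OSCs than in non-OSCs, while the histones are higher. With shPDK1#2 the replication genes are higher than in shCtrl and the other 2 sums are lower.

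Promoter sequences were described as well. The genes were chosen by their part in G1/S and replication, and E2F drives many such genes. The share with an E2F motif is therefore not independent of that choice. RefSeq windows on GRCh38.p14, from 250 bases before to 50 bases after a start site, existed for 35 of the 40 genes and for 27305 genes in all. MCM4, MCM5, GINS4, CCNE2 and E2F8 had none. The E2F motif, searched on both strands as TTTCCCGC, TTTCGCGC, TTTGCCGC and TTTGGCGC (overlapping matches counted), was present for 20 of the 35 genes (57.1%) and for 3.99% of all genes with a window. A CCAAT box (CCAAT on either strand) was present for 54.3% of the 35 and 39.7% of all genes, and the CHR motif of late cell cycle genes (TTTGAA on either strand) for 2.86% and 18.2%. Among 11 G2/M genes with a window, 9.09% held the E2F motif, 100% the CCAAT box and 72.7% the CHR motif. Of the 61 other replication genes described below the share with the E2F motif was 37.5% of 48 with a window. The presence of these letters is a description of the windows and not of binding.

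The 5 promoters printed here were chosen after the results were seen. They are MCM6 with the most E2F matches, GINS2 with a large change in both tables and UHRF1 with the largest fall in OSCs. RRM2 was added as the gene that fell where others rose. E2F2 was added as the one gene called with shPDK1#1, a call that was lost without some single libraries. Each ends at the base before its RefSeq start site and is written 5′ to 3′ on the gene's strand. Capitals mark E2F matches, and CCAAT boxes in RRM2. The positions on GRCh38.p14 are chr2:135876444-135876613 (minus strand) for MCM6, chr16:85688955-85689054 (minus) for GINS2, chr1:23531234-23531333 (minus) for E2F2, chr19:4909401-4909500 (plus) for UHRF1 and chr2:10122599-10122738 (plus) for RRM2.
MCM6: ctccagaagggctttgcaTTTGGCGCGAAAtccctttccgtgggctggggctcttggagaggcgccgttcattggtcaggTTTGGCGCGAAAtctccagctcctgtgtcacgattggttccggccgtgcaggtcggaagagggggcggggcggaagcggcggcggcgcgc
GINS2: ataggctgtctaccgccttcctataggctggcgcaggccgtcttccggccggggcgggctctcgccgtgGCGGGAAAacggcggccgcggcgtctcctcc
E2F2: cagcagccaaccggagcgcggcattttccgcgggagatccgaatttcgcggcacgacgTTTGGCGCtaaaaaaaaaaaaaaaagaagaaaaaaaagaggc
UHRF1: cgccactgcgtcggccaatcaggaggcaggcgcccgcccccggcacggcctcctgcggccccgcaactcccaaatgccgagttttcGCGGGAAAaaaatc
RRM2: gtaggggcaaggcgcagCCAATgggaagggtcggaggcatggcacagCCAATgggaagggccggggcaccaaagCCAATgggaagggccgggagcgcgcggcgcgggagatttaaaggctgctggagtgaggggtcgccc
In MCM6, 4 matches form 2 overlapping pairs, each an E2F sequence read from both strands. RRM2 had no E2F match in its window and 3 CCAAT boxes in the printed stretch. CCAAT boxes on either strand also lie in the printed stretches of MCM6 and UHRF1, where they are left in lower case. GINS2, E2F2 and UHRF1 had 1 match each in the printed window. With shPDK1#2, 10 of the 20 genes with an E2F match rose (median 0.21), as did 5 of the 15 whose windows lacked one (median 0.15). In OSCs the medians were -0.84 and -0.70. These differences between the genes with and without a match were not tested.

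A further 61 genes of replication were taken from textbook knowledge, and 61 were tested. In OSCs 47 fell and 5 rose (median -0.44). These are 77.0% and 8.2% of the 61, where 31.5% of all genes fell and 32.4% rose. The falls numbered 38 with DESeq2 and 48 with the replicate block. The largest falls were CDC25A (-1.21), the phosphatase that activates CDK2, CLSPN (-1.19), which signals stalled forks, and MTBP (-1.10), which acts in origin firing. The largest rises were RRM2B (1.15), a ribonucleotide reductase subunit used outside S phase, the repressor E2F7 (1.11) and POLD4 (0.73), a small subunit of polymerase delta. RRM2B was 29.8, 25.0 and 23.5 CPM in non-OSCs and 54.5, 57.8 and 61.6 CPM in OSCs, while RRM2 fell. With shPDK1#1, 1 of the 61 was called, E2F3, a transcriptional activator (-0.52). This is 1.64% of the 61, close to the 1.44% of all genes that fell. A count of 2 was reached under each of the 6 other settings and without shPDK1#2 replicate 1 or 2. With shPDK1#2, 16 rose and 4 fell (median 0.11). These are 26.2% and 6.56% of the 61, where 12.0% of all genes rose and 14.2% fell. The rises numbered 11 without shPDK1#2 replicate 3, 13 with DESeq2 and 21 with at least 10 counts in every library. The largest rises were CDC25A (0.71), the nuclease gene EXO1 (0.54) and ORC3 of the origin recognition complex (0.40), and the falls included E2F3 (-1.04), POLD4 (-0.42) and E2F7 (-0.40).

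E2F3 differed from the E2F members described above in being called lower with both hairpins. It was 63.6, 60.6 and 70.2 CPM in shCtrl, 44.8, 49.1 and 41.9 CPM with shPDK1#1 and 32.5, 32.0 and 29.9 CPM in the shPDK1#2 libraries. The 3 groups did not overlap, and the difference between the hairpins was -0.52 (SE 0.083, adjusted p = 4.65e-05). CDC25A was 32.9, 28.7 and 29.4 CPM in shCtrl, 33.5, 33.6 and 37.5 CPM with shPDK1#1 and 49.4, 51.8 and 47.2 CPM in the shPDK1#2 libraries. Its shPDK1#2 libraries lay above all others (log2 fold change against shCtrl 0.71, SE 0.082, adjusted p = 2.39e-07). Between the hairpins, 15 of the 61 genes were higher with shPDK1#2 and 4 were lower. These are 24.6% and 6.56% of the 61, where 6.50% of all genes were higher and 9.78% lower. The higher genes numbered 11 without shPDK1#1 replicate 1 and 16 with DESeq2. The largest differences were CDC25A (0.50), EXO1 (0.40) and MTBP (0.39), and E2F3, POLD4 (-0.43) and E2F7 (-0.32).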

How the data were processed

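Per the labels and the submitters' processing notes, reads were trimmed with Trimmomatic 0.39, checked with FastQC 0.12.1 and aligned to GRCh38.p14 with STAR 2.7.11a. The authors deposited RSEM 1.3.3 expected counts per gene (estimated counts that need not be whole, not normalized), in 1 table for OSCs and non-OSCs and 1 for the hairpins. The annotation and the strandedness are not given in the sources used here. The genes, the lists, the tests and the naming rule were chosen with earlier results of these data known. Symbols and exons came from GENCODE 44.

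Expected counts were rounded (6.85% and 6.92% of values were not whole) and tested in R 4.3.3 with edgeR 4.0.16 (TMM, filterByExpr by condition, quasi-likelihood test, Benjamini-Hochberg adjustment over all genes tested) on 6 and 9 libraries. The procedure was first tested on simulated data. SEs were derived from the test statistic. Full statistics are given for the largest rise and fall called in each role group, for genes called between the hairpins, and for a few genes near the threshold or named as exceptions. Of the other lists, counts and the 3 largest changes each way are given. Genes beyond this rule were chosen after their values were seen. Alternatives were DESeq2 1.42.0, scaling by library size alone, no filter, a filter of at least 10 counts in each library, a block for the replicate number, a fit of the compared groups alone, and leaving out each library.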

Additional observations from a re-analysis of the deposited data

Results flagged for a closer look

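The effects of the hairpins, each against shCtrl, differed from each other by the direct edgeR quasi-likelihood test (adjusted p under 0.05) for 24 of the 40 replication genes. The level with shPDK1#2 was the higher in each. Of all genes tested, 6.50% were higher with shPDK1#2 than with shPDK1#1 and 9.78% were lower. In log2 units, the differences among MCM subunits were 0.50 for MCM2, 0.43 for MCM5, 0.37 for MCM3, 0.32 for MCM6, 0.30 for MCM4 and 0.18 for MCM7. For loading and activation they were 0.37 for CDC45, 0.30 for MCM10 and 0.23 for CDT1, and for GINS genes 0.54 for GINS2, 0.30 for GINS1 and 0.25 for GINS4. For the clamp and its loader they were 0.33 for RFC5, 0.27 for PCNA and 0.21 for RFC3, and for polymerases 0.49 for POLE2, 0.37 for POLD1 and 0.18 for POLE. The rest were 0.67 for E2F2, 0.48 for CCNE2, 0.21 for CHAF1A, 0.20 for SLBP, 0.19 for LIG1 and 0.12 for TYMS. The calls of TYMS, GINS4, LIG1, SLBP and RFC3 were lost in 5 to 8 of the 9 fits with 1 library left out. Those of CDT1, POLE, CHAF1A and CCNE2 were lost in 2. PDK1 itself was lower with shPDK1#2 than with shPDK1#1 (log2 difference -0.50, SE 0.091, adjusted p = 0.00024). The part of PDK1 dose, or of effects of a hairpin on other RNAs, in these differences was not tested. Groups of 3 libraries were too small for a test of single outlying libraries.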

How the results depend on the processing

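The 40 falls in OSCs were called under DESeq2, library size alone, no filter, at least 10 counts in every library, the replicate block and each library left out. With shPDK1#1 the count of 1 became 3 with DESeq2 or library size alone, 2 with no filter, with at least 10 counts in every library or with the replicate block, and 0 to 2 with 1 library left out (0 without shCtrl replicate 1 or 2 or shPDK1#1 replicate 2 or 3, and 2 without shPDK1#1 replicate 1 or shPDK1#2 replicate 2). The causes were not tested. With shPDK1#2, 18 calls became 15 to 19 under other settings and 13 to 19 with a library left out, and the 24 between hairpins became 20 to 25 and 17 to 22. No gene among the 40 called under one setting was called in the opposite direction under another. Same-numbered libraries deviated from their group means with correlations of -0.054 to 0.095. Such small correlations show no clear pairing by number but cannot exclude one. The replicate block gave 17 calls with shPDK1#2 and 25 between hairpins. Depth limits E2F2, CCNE1, CCNE2, E2F8 and POLE2 most, which had the fewest counts.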

Other observations

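Regulators upstream of the G1/S transition also differed between the conditions. CDKN1A, which encodes the CDK inhibitor p21, was 90.2, 92.9 and 98.4 CPM in non-OSCs and 486, 513 and 528 CPM in OSCs (log2 fold change 2.44, SE 0.052, edgeR adjusted p = 9.45e-20). In the hairpin libraries it was 274, 270 and 262 CPM in shCtrl, 222, 227 and 215 CPM with shPDK1#1 and 132, 131 and 125 CPM in the shPDK1#2 libraries, and the 3 conditions did not overlap. It was called lower with shPDK1#1 (-0.28, SE 0.043, adjusted p = 0.000171) and with shPDK1#2 (-1.06, SE 0.045, adjusted p = 3.05e-15). CCND1, cyclin D1, was 1070, 1050 and 1030 CPM in shCtrl, 953, 934 and 932 CPM with shPDK1#1 and 740, 738 and 742 CPM in the shPDK1#2 libraries. Of 12 tested genes among the CDK inhibitors, D cyclins and RB1 with their partners, 7 rose (58.3%, where 32.4% of all genes rose) and 3 fell in OSCs (25.0%, where 31.5% of all genes fell), the falls being CDK4 (-0.78), CDK6 (-0.77) and CCND3 (-0.28). With shPDK1#1, 0 rose and 3 fell (25.0%, against 1.44% of all genes), CDKN1A, CCND1 (-0.16) and CDK6 (-0.19). CDK6 was close to the threshold (adjusted p = 0.0491), and its call was lost in 8 of the 9 fits with 1 library left out. With shPDK1#2, CDK4 alone rose (0.28; 8.33% of the 12, against 12.0% of all genes), and CDKN1A and CCND1 (-0.51) fell (16.7%, against 14.2%). Both shares are near those of all genes. The 2 falls became 4 without shPDK1#1 replicate 2, and 2 to 3 without any other library. The rises became 2 with at least 10 counts in every library, with the replicate block and with the compared groups fitted alone. They also became 2 without shCtrl replicate 3, shPDK1#1 replicate 2 or shPDK1#2 replicate 2.

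H4C11, a histone gene with few reads, had 0 to 31 counts per library, so its fitted change is no measure of size.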
